A study of Sus scrofa with 12 samples.

Results

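Cystatins are small proteins that block cysteine proteases of the papain family, such as the cathepsins, by sitting in the protease's active-site cleft. Stefins such as CSTB act inside the cell, whereas the type 2 cystatins carry a signal peptide and are secreted or sent to lysosomes. Several type 2 genes lie side by side in mammalian genomes, and members of this cluster are known for expression in the male reproductive tract, where cystatins are found in the fluid around sperm. The genes described here are the cystatin rows CST3, CST6, CST7, CST11, CSTB and CSTL1, taken by exact name from the read count tables, 6 of 30640 gene rows. The rule named 7 genes, and CST8 was not analysed here.

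The tissues were the epididymis, a long coiled duct where sperm mature, and the testis, which makes sperm and androgens. Both came from untreated boars of an inbred line of Banna mini-pigs. Each tissue had 5 short-read libraries of RNA enriched for poly-A tails, 1 per boar, and the animal numbers in the file headers (21, 23, 25, 27 and 29) recur in both tissues, so libraries with the same replicate number share a boar. All boars are 12 months old by the labels, but the headers state 12, 12, 11, 17 and 11 months for replicates 1 to 5. Neither the part of the epididymis that was sampled nor a cell type is named in the labels, so all levels are those of bulk tissue, in which fewer cells of a type and less RNA per cell cannot be told apart.

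Library totals were 17980578 to 21937263 reads in the epididymis and 18715154 to 30211957 in the testis. Marker genes followed the tissue labels. Epithelial keratins and adhesion genes (4 of 5 listed had a row) summed to 1328 to 1923 reads per 1000000 reads of the library (CPM) in the epididymis and to 18.9 to 36.5 CPM in the testis, and 4 Leydig cell genes summed to 26.3 to 33.6 CPM in the epididymis and to 12071 to 19252 CPM in the testis. Haploid germ cell and sperm genes (12 genes) summed to 74.9 to 543 CPM in the epididymis, with the highest value in replicate 3, and to 14562 to 18380 CPM in the testis. Testis replicate 4 stood apart from the other testis libraries, with 70.6 CPM of small structural RNAs against 15041 to 16184 CPM in the other 4. The epididymis libraries held 71.7 to 132 CPM, so in this class of RNA the other 4 testis libraries differed from all the rest. Histone genes had 74.0 CPM in testis replicate 4, 1998 to 2872 CPM in the other 4 and 51.5 to 288 CPM in the epididymis. Mitochondrial genes had 16159 CPM in testis replicate 4, 5238 to 8323 CPM in the other 4 and 17840 to 64534 CPM in the epididymis. These differences in RNA content went with tissue in those 4, and their part in the tissue differences was not tested.

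The cystatins divided between the tissues. CST6, CST3 and CSTB were higher in the epididymis and CST7 and CSTL1 were higher in the testis, by edgeR's quasi-likelihood test at an adjusted p under 0.05. CST11 was abundant in 2 of the 5 epididymis libraries and almost without reads in the testis. Of the 6 genes, 5 passed the filter on low counts, and all 5 were called, 3 higher in the epididymis and 2 higher in the testis. Among all 17225 genes tested, 74.4% were called, 37.8% higher in the epididymis and 36.6% higher in the testis, so a call by itself is the common outcome in this comparison. A change beyond 2-fold was called for 4 of the 5, against 50.7% of all genes. In 4 of the 5 the libraries of the tissues did not overlap, against 61.4% of all genes.

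**Figure D1:**
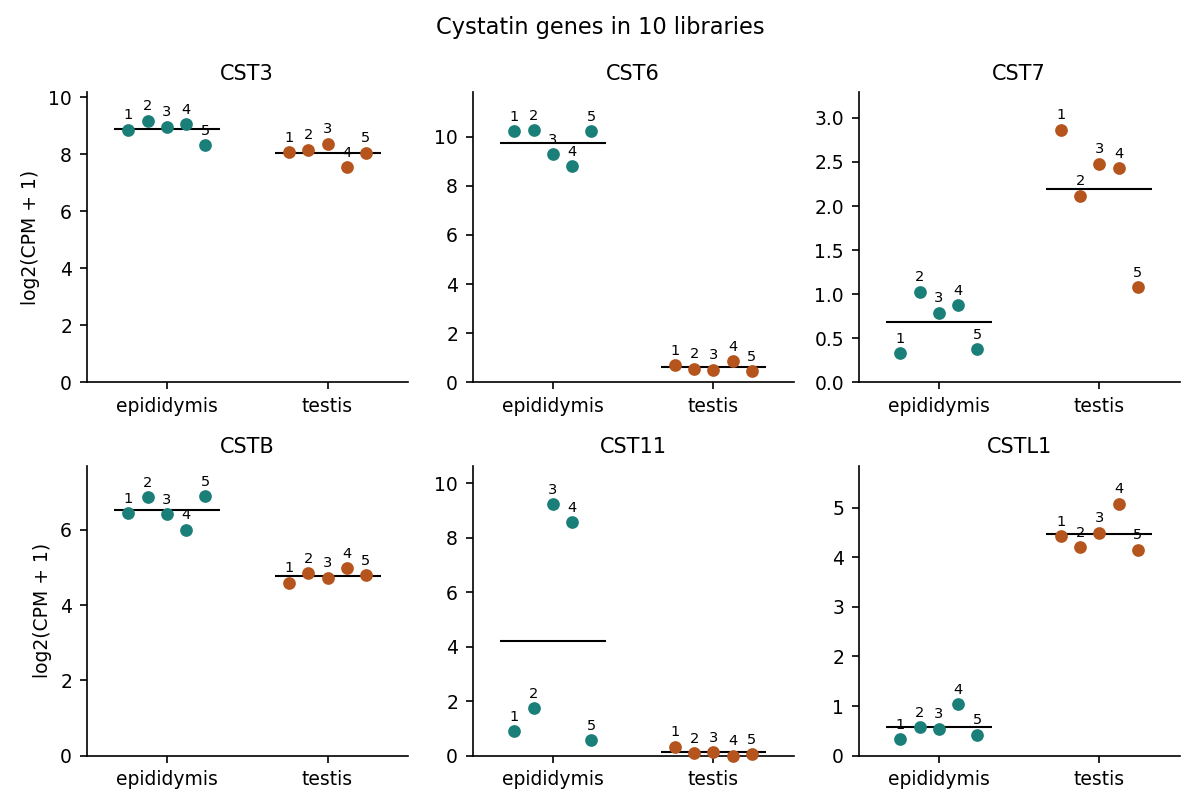
Level of each cystatin gene in every library, as log2(CPM + 1), with epididymis libraries on the left and testis libraries on the right of each panel. Digits are replicate numbers, horizontal lines are means of the 5 libraries on the plotted scale, and the vertical axes differ between panels. CST6 is high in all epididymis libraries, CST11 in replicates 3 and 4, and CST7 and CSTL1 are higher in the testis.

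CST6, cystatin E/M, a secreted inhibitor of legumain and of cathepsins L and V known from epidermis, was the most abundant cystatin of the epididymis on average. It lies on chromosome 2, bases 6323737 to 6325519 (Sscrofa11.1). Epididymis replicates 1 to 5 held 1205, 1226, 622, 444 and 1195 CPM, against 0.615, 0.463, 0.417, 0.801 and 0.370 CPM in testis replicates 1 to 5. All epididymis libraries lay far above all testis libraries, and among the epididymis libraries replicates 3 and 4 were the lowest. The means were 939 ± 375 CPM in the epididymis and 0.533 ± 0.176 CPM in the testis (SD, n = 5 each), a 1760.4-fold difference. The log2 fold change, epididymis over testis, was 10.79 ± 0.50 (SE; edgeR adjusted p = 1.65e-08), and the difference had this direction in 5 of 5 boars. With 9 to 15 reads in each testis library, the testis level rests on few reads.

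Within the epididymis, the lower CST6 of replicates 3 and 4 came with other differences in tissue content. Summed levels of 5 smooth muscle genes were 10629, 15065, 6447, 5378 and 10209 CPM in replicates 1 to 5, and 4 of the 5 genes had their lowest levels in replicates 3 and 4, as 10.3% of all genes did. The epithelial sum was 1923, 1410.1, 1328, 1353 and 1523 CPM in the same order. This sum varied less than CST6, but its genes did not move together. In replicate 5 KRT8 and KRT18 were lowest and CDH1 was highest. The highest epididymis library was 1.54 times the lowest for EPCAM, 2.25 for CDH1, 2.58 for KRT8 and 3.83 for KRT18, against 2.76 for CST6. The 4 basal cell genes summed to 953, 826, 317, 1121 and 662 CPM, with the lowest value in replicate 3. The part of these differences in the CST6 level was not tested.

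CST3, cystatin C, a broad secreted inhibitor of cathepsins made by most cell types, was abundant in both tissues. Its gene is on chromosome 17, bases 30471056 to 30474486. Levels were 461, 576, 499.8, 532 and 318 CPM in epididymis replicates 1 to 5 and 266, 284, 331, 185 and 263 CPM in testis replicates 1 to 5. The tissues overlapped through a single pair of libraries, since epididymis replicate 5 lay below testis replicate 3, but within each boar the epididymis was the higher tissue. The means were 477 ± 98.7 CPM in the epididymis and 266 ± 52.6 CPM in the testis (SD, n = 5 each), a 1.80-fold difference. Its log2 fold change was 0.82 ± 0.21 (edgeR adjusted p = 0.00444), and a change beyond 2-fold was not called (edgeR adjusted p = 0.740). With testis replicate 4, the lowest testis library, standing alone for its tissue, the log2 difference was 1.26 and the call was lost (edgeR adjusted p = 0.0502).

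CSTB, the cytosolic and nuclear stefin B, lies on chromosome 13, bases 206706060 to 206710598. Epididymis replicates 1 to 5 had 86.0, 116, 84.3, 63.0 and 118 CPM, against 23.2, 27.7, 25.4, 30.5 and 26.7 CPM in testis replicates 1 to 5. The groups did not overlap, and the spread among testis libraries was small. The means were 93.5 ± 23.3 CPM in the epididymis and 26.7 ± 2.69 CPM in the testis (SD, n = 5 each), a 3.50-fold difference with a log2 fold change of 1.80 ± 0.22 (edgeR adjusted p = 1.33e-05). A change beyond 2-fold was called as well (edgeR adjusted p = 0.000818). Against testis replicate 4 alone the log2 difference was 1.52 without a call (edgeR adjusted p = 0.0501).

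**Figure D2:**
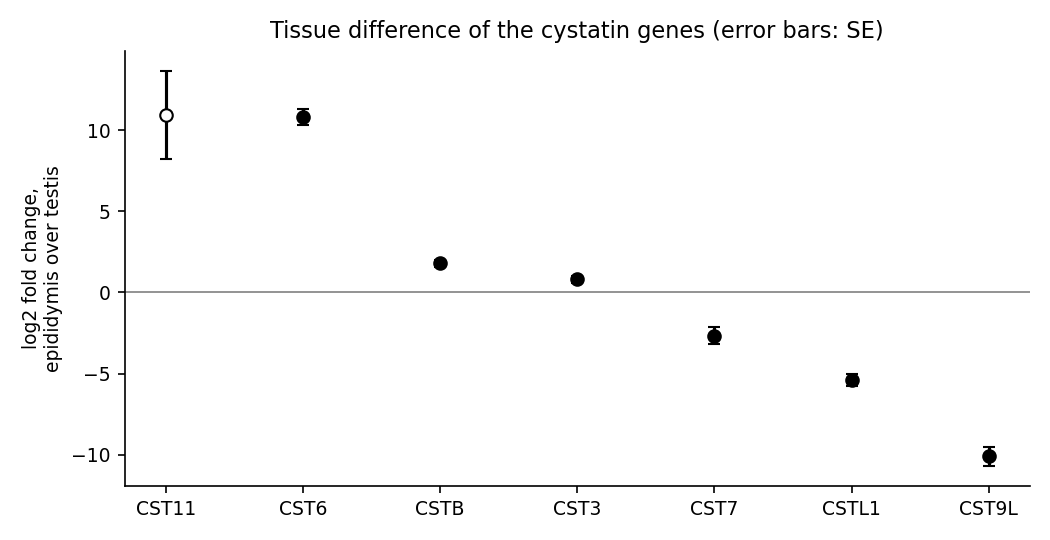
Log2 fold change, epididymis over testis, with its standard error, for the cystatin genes and for CST9L, a gene of the same superfamily. Filled points are from the fit to the 17225 genes past the filter, and the open point of CST11 is from the fit without the filter. Values run from 10.94 for CST11 and 10.79 for CST6 to -5.42 for CSTL1 and -10.11 for CST9L.

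CST7, cystatin F, is known from human and mouse as the inhibitor of cathepsin C and related proteases in lysosomes of cytotoxic and myeloid leukocytes. It was a low gene in both tissues (chromosome 17, bases 30758000 to 30766472), with 61 reads over the 5 epididymis libraries and 432 over the 5 testis libraries. Levels were 0.255, 1.04, 0.729, 0.834 and 0.294 CPM in epididymis replicates 1 to 5 and 6.30, 3.34, 4.58, 4.38 and 1.11 CPM in testis replicates 1 to 5. Testis replicate 5 lay only just above epididymis replicate 2, while the other testis libraries were clearly higher. The means were 0.630 ± 0.344 CPM in the epididymis and 3.94 ± 1.91 CPM in the testis (SD, n = 5 each), and the log2 fold change was -2.67 ± 0.52 (edgeR adjusted p = 0.000601, lower in the epididymis of 5 of 5 boars). The sum of the leukocyte list went the other way, though not every gene of it did. Its 10 genes with a row, of 11 listed, summed to 82.9 to 189 CPM in the epididymis and to 35.5 to 43.7 CPM in the testis. CD68 and CSF1R had the highest means of the list in the epididymis, at 78.6 and 36.5 CPM, against 4.80 and 15.8 CPM in the testis. PTPRC, the pan-leukocyte antigen CD45, stood at 2.30 to 19.5 CPM in the epididymis and at 0.666 to 1.92 CPM in the testis. Among the T, NK and cytotoxic cell markers of the list, the mean levels of CD3E, NKG7 and PRF1 in the epididymis were 2.42, 1.49 and 1.29 times those in the testis. CD3E (edgeR adjusted p = 0.0602) and NKG7 (edgeR adjusted p = 0.324) were not called, and PRF1 did not pass the filter. With the boar as a block CD3E was called higher in the epididymis (log2 1.41, edgeR adjusted p = 0.0465). Without the block CD2 alone of these markers was called, and it had the direction of CST7 (log2 -2.34, edgeR adjusted p = 9.97e-06). It stood at 0.967 to 2.42 CPM in the epididymis and at 7.75 to 9.86 CPM in the testis. S100A8 had 1 read over the epididymis libraries and 4 over the testis libraries. The part of leukocytes in the CST7 level was not tested.

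CSTL1, cystatin-like 1, is a member of the cluster with a known transcript in human testis and no protease target that is firmly established. It lies on chromosome 17, bases 30403841 to 30407571. Epididymis replicates 1 to 5 held 0.255, 0.493, 0.456, 1.06 and 0.343 CPM, or 5 to 19 reads, against 20.4, 17.4, 21.6, 32.9 and 16.8 CPM in testis replicates 1 to 5. No libraries overlapped, and replicate 4 was the highest in both tissues. The means were 0.521 ± 0.314 CPM in the epididymis and 21.8 ± 6.48 CPM in the testis (SD, n = 5 each), so the level was 41.9-fold higher in the testis. The log2 fold change was -5.42 ± 0.38 (edgeR adjusted p = 2.20e-07, lower in the epididymis of 5 of 5 boars).

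CST11 belongs to the reproductive branch of the cystatins that also holds CST8, and is known in human as an epididymal protein with antibacterial activity. The gene occupies bases 30415161 to 30416984 of chromosome 17. Epididymis replicates 1 to 5 had 0.865, 2.35, 599, 382 and 0.490 CPM, and testis replicates 1 to 5 had 0.256, 0.0662, 0.0926, 0 and 0.0411 CPM. In reads these are 17, 43, 13140, 6868 and 10 in the epididymis and 5, 2, 2, 0 and 1 in the testis, where a count of 0 in replicate 4 allows up to 0.160 CPM (3 reads, counting error only). Replicates 3 and 4 of the epididymis were thus high, the other 3 epididymis libraries were low, and even the lowest of them lay above every testis library. The highest epididymis library was 1223 times the lowest. For the other cystatins this ratio was 1.81 for CST3, 1.87 for CSTB, 2.76 for CST6, 4.09 for CST7 and 4.15 for CSTL1.

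A single mean describes CST11 poorly, since the mean of 197 CPM in the epididymis has an SD of 279 (n = 5). The gene missed the filter on low counts, which asked for at least 0.499 CPM in 5 libraries and was met in 4, so it has no test beside the other cystatins. In the fit without the filter, over 27584 genes, the log2 fold change was 10.94 ± 2.74 (edgeR adjusted p = 0.00776). Without epididymis replicates 3 and 4, in an alternative chosen after the data were seen, it was 3.69 ± 0.75 (edgeR adjusted p = 0.000463). With the boar as a block, also chosen after the data were seen, it was 9.31 (edgeR adjusted p = 0.0261).

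The 3 genes most like CST11 over the 5 epididymis libraries were ELSPBP1, DEFB127 and SPAG11. Likeness was the root mean square difference in log2(CPM + 1), each gene centred on its own mean, over 8662 named genes with a mean of at least 10 CPM in the epididymis, and the values below chose the genes and are a description. ELSPBP1, an epididymal protein that binds sperm (chromosome 6, bases 53583965 to 53603746), was the nearest, with a difference of 0.82. DEFB127, a beta-defensin (chromosome 17, bases 34973682 to 34975738), followed at 1.28, and SPAG11, a defensin-like epididymal peptide gene (chromosome 15, bases 38027922 to 38037608), at 1.50. The median over all 8662 genes was 3.84. ELSPBP1 had 0.0509, 0.219, 84.6, 90.9 and 0 CPM in epididymis replicates 1 to 5, and 0.575 to 1.20 CPM in the testis. For DEFB127 the 5 epididymis values were 9.67, 8.27, 3731, 199.6 and 3.33 CPM, with 0 reads in all testis libraries. SPAG11 stood at 4.38, 4.43, 281, 85.3 and 3.57 CPM, and at 9.96 to 11.8 CPM in the testis. Replicates 3 and 4 were the highest epididymis libraries for all 3 genes and for CST11, as for 23.4% of all genes tested.

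**Figure D3:**
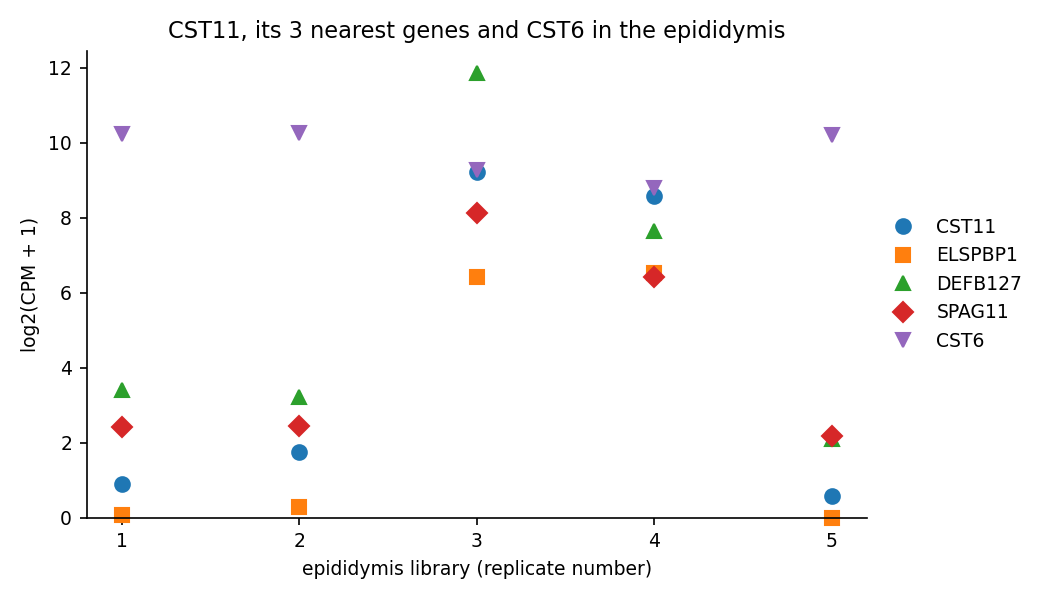
Levels in the 5 epididymis libraries, as log2(CPM + 1), of CST11, of the 3 genes with the most similar pattern and of CST6. CST11, ELSPBP1, DEFB127 and SPAG11 are high in replicates 3 and 4 and low in 1, 2 and 5, while CST6 is lowest in replicates 3 and 4.

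Genes linked to the initial segment and caput in mouse, the upper part of the duct, were for the most part highest in epididymis replicate 3. Of 13 such genes 11 had a row and 10 were tested, and 9 were called higher in the epididymis and 0 in the testis. Among all genes tested 37.8% were called higher in the epididymis and 36.6% higher in the testis. The median log2 fold change of the list was 8.78 against 0.07 over all genes. DESeq2 gave an adjusted p for 5 of the 10 and called all 5, leaving the other 5 without one, and 3 were called higher in the epididymis against testis replicate 4 alone. LCN9, a lipocalin gene named after its values were seen, had 23.7 CPM in epididymis replicate 3, at most 0.0556 CPM in the other epididymis libraries and 0.648 to 1.72 CPM in the testis. It was not called (edgeR adjusted p = 0.249), but without epididymis replicate 3 it was called lower in the epididymis (log2 -5.14, edgeR adjusted p = 1.91e-05). Epididymis replicate 3 was the highest epididymis library for 7 of the 10, and the share of all genes highest in that replicate was not computed. LCN8, ETV4 and DUSP6, named after their values were seen, were highest in replicates 1, 2 and 4. They had 72.6, 106 and 100 CPM there in this order, against 68.5, 22.0 and 28.9 CPM in replicate 3. RNASE10, a secreted protein of the RNase A family, had 12.4, 11.8, 5909, 16.0 and 6.12 CPM in epididymis replicates 1 to 5 and 0.160 to 0.397 CPM in the testis. GPX5, an epididymal glutathione peroxidase, had 3.61, 4.71, 2577, 1.56 and 52.7 CPM, and 0.0534 to 0.596 CPM in the testis. ADAM28, a membrane protease, had 347, 226, 1537, 348 and 238 CPM, and 4.35 to 7.96 CPM in the testis. RNASE10, GPX5 and ADAM28 were each called higher in the epididymis. Without epididymis replicate 3 the log2 difference was 5.19 in place of 11.81 for RNASE10 and 5.32 in place of 10.28 for GPX5. Against testis replicate 4 alone RNASE10 (log2 12.64, edgeR adjusted p = 0.223) and GPX5 (log2 12.95, edgeR adjusted p = 0.219) were not called. Their levels in replicate 3 alone stood far above the other libraries, whereas CST11 was high in replicates 3 and 4.

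Marker lists of other cell types also varied among the epididymis libraries, some with CST11 and some not. The haploid germ cell and sperm list summed to 84.8, 78.6, 543, 167 and 74.9 CPM in epididymis replicates 1 to 5. Of its 12 genes 9 were highest in replicates 3 and 4, as were 23.4% of all genes tested. PRM1 alone held 290 CPM of the sum in replicate 3. GAPDHS went another way, with 58.8, 41.0, 23.1, 86.2 and 31.5 CPM in epididymis replicates 1 to 5. In the testis, where this list summed to at least 14562 CPM, CST11 did not exceed 0.256 CPM. Of the 4 basal cell genes KRT5 and TP63 were highest in replicates 3 and 4, and TP63, a basal cell transcription factor, had 96.3 and 84.6 CPM there and 12.9 to 16.0 CPM in the other 3 libraries. The basal keratins KRT14 and KRT15 were lowest in replicate 3. KRT14 had 126 CPM there against 600.4 to 864 CPM in the others, and KRT15 had 2.37 CPM against 13.1 to 38.0 CPM. Of the 10 leukocyte genes 6 were highest in replicates 3 and 4, beside the same 23.4% of all genes. The sum of the 10 was 167, 164, 126, 189 and 82.9 CPM in epididymis replicates 1 to 5. It was highest in replicate 4, while replicate 3 lay below replicates 1 and 2. CD68, the gene of this list with the highest mean in the epididymis, had 122, 123, 20.5, 89.0 and 38.8 CPM. Fibroblast genes summed to 1121, 1401, 3806, 1131 and 2893 CPM. Clear cell genes summed to 1.58, 3.12, 43.4, 7.62 and 2.55 CPM. The part of these cell types in the CST11 level was not tested.

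Compared per length, as CPM per kb of the gene length in the files, the order of the cystatins differed between the tissues. In the epididymis CST6 averaged 1386 ± 555 CPM per kb, CST3 615 ± 127, CST11 269 ± 380 and CSTB 154 ± 38.6, while CST7 and CSTL1 were at 0.857 ± 0.468 and 0.842 ± 0.508 (SD, n = 5). Neighbours in this order were not cleanly apart. CST6 ran from 656 to 1811 CPM per kb and CST3 from 409 to 743, CST11 spanned the levels of both CST3 and CSTB, and CST7 and CSTL1 lay within each other's spread. CST3 exceeded CST6 in epididymis replicate 4, and CST11 was ahead of CST3 in replicate 3. In the testis CST3 led the 6 genes with 342 ± 67.8 CPM per kb, ahead of CSTB with 44.1 ± 4.45 and CSTL1 with 35.3 ± 10.5, which overlapped, and of CST7 with 5.36 ± 2.59, CST6 with 0.788 ± 0.260 and CST11 with 0.124 ± 0.134. Among 14452 named genes with reads in the epididymis CST6 ranked at place 31 by mean CPM per kb and CST3 at 69, and CST3 ranked at 97 among 14698 in the testis.

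Of the other genes of the cystatin superfamily, 9 of 16 listed had a row and 3 passed the filter, with 0 called higher in the epididymis and 2 called higher in the testis. The shares among all genes tested were 37.8% and 36.6%, and 3 genes are too few to set against them. The row CST9L, a type 2 cystatin gene known from testis in human, held most of the cystatin reads of the testis. It had 0.458, 1.04, 1.78, 0.278 and 0.539 CPM in epididymis replicates 1 to 5, against 975, 956, 1072, 480 and 1009 CPM in testis replicates 1 to 5. Testis replicate 4 was the lowest of its group but stood far above every epididymis library. The log2 fold change was -10.11 ± 0.59 (edgeR adjusted p = 6.19e-08). LXN, latexin, a carboxypeptidase inhibitor with a cystatin-like fold, was also lower in the epididymis, with 6.59 ± 3.49 CPM against 15.1 ± 6.67 CPM in the testis (log2 -1.20 ± 0.39, edgeR adjusted p = 0.0146). RARRES1, its relative, had 20.5 ± 22.2 CPM in the epididymis and 24.4 ± 4.33 CPM in the testis (log2 -0.30 ± 0.51, edgeR adjusted p = 0.607), but without epididymis replicate 3, which held 59.7 CPM, it was called lower in the epididymis (log2 -1.20, edgeR adjusted p = 0.00104). The stefin gene CSTA had at most 1 read in any library.

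With CST9L set beside the 6 cystatins, the summed level of the 7 genes was 1969.8 to 2752 CPM per kb in the epididymis and 1068 to 2114 CPM per kb in the testis. CST6 made up 56.1 ± 19.7% of it in the epididymis and 0.0506 ± 0.0346% in the testis. CST3 took 25.6 ± 6.32% in the epididymis and 19.6 ± 1.84% in the testis, and CST9L 0.0489 ± 0.0343% and 75.1 ± 4.48% in the same order (SD, n = 5 each). CST11 ranged from 0.0282% to 32.4% among epididymis libraries, with the highest share in replicate 3.

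**Figure D4:**
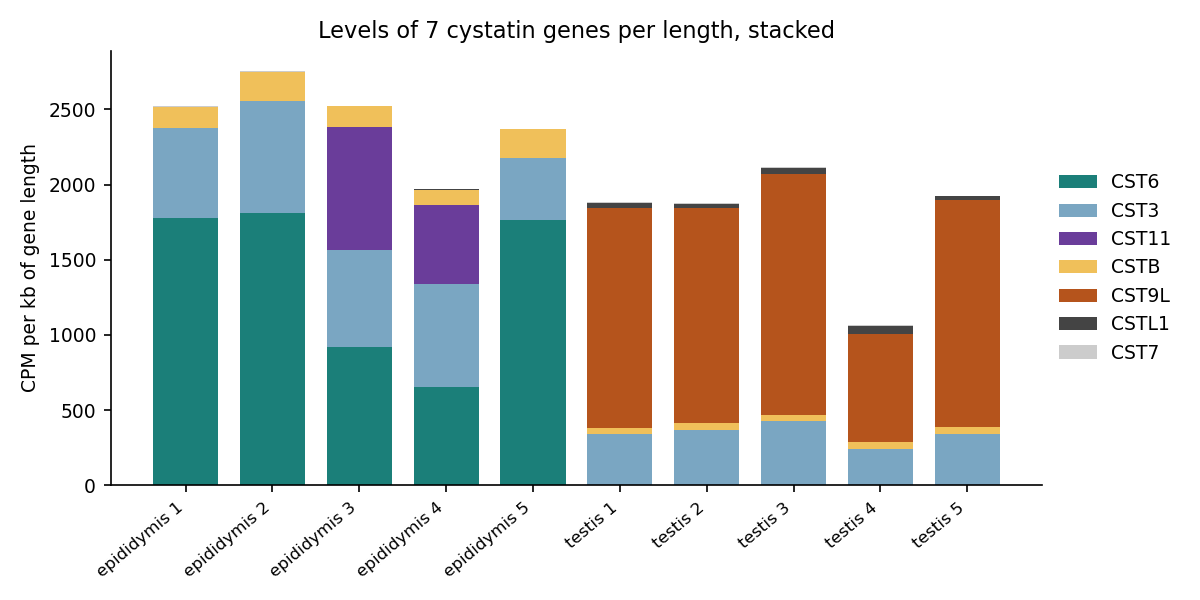
Levels of 7 cystatin genes per library, stacked, in CPM per kb of gene length on a linear axis, with epididymis libraries on the left and testis libraries on the right. CST6 and CST3 fill most of the epididymis bars, CST11 adds a visible share in epididymis replicates 3 and 4, and CST9L fills most of each testis bar.

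On chromosome 17, CSTL1, CST11, CST8, CST3 and CST7 lie in this order in the RefSeq gene table of Sscrofa11.1, with 0, 1, 2 and 4 other genes in the gaps between them. CSTL1 and CST11 are 7589 bases apart. These neighbours had opposite tissue patterns, CSTL1 with at most 1.06 CPM in the epididymis and at least 16.8 CPM in the testis, and CST11 with at most 0.256 CPM in the testis. CST3, present at 185 CPM or more in both tissues, and CST7, low in both, lie within 362632 bases counted from the start of CSTL1 to the end of CST7. CST6 and CSTB are on other chromosomes.

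The proteases that cystatins act on were read from the same fit. Of 12 listed genes of the papain family and legumain 11 had a row and were tested, and 6 were called higher in the epididymis, 0 higher in the testis and 5 not called. The share higher in the epididymis among all genes was 37.8%, and the median log2 fold change of the list was 1.52 against 0.07 over all genes. Against testis replicate 4 alone 2 were called higher in the epididymis.

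LGMN, legumain, the asparaginyl protease that CST6 and CST3 inhibit, had 664, 433, 417, 697 and 564 CPM in epididymis replicates 1 to 5 and 157, 196, 157, 160.2 and 132.5 CPM in testis replicates 1 to 5. The groups did not overlap, and the log2 fold change was 1.76 ± 0.21 (edgeR adjusted p = 1.06e-05). It was thus higher in the tissue in which CST6 was high, but its epididymis values did not follow those of CST6, since replicate 4 held the most LGMN and the least CST6. CTSV, a cathepsin L-like protease and target of CST6, had 161, 188, 1512, 163 and 308 CPM in the epididymis and 51.5 to 95.4 CPM in the testis (log2 2.85 ± 0.63, edgeR adjusted p = 0.00143). Without epididymis replicate 3 its log2 difference was 1.72 (edgeR adjusted p = 6.99e-05), and with testis replicate 4 alone the call was lost (edgeR adjusted p = 0.303). CTSL was low, with 1.73 to 11.9 CPM in the epididymis and 0.972 to 3.69 CPM in the testis (log2 1.52 ± 0.54, edgeR adjusted p = 0.0233). That call was lost without epididymis replicate 5 (log2 0.99, edgeR adjusted p = 0.0797) and without testis replicate 1, 2, 3 or 5 (edgeR adjusted p = 0.0515 to 0.0717), and against testis replicate 4 alone (log2 0.48, edgeR adjusted p = 0.749). CTSL and CTSV are close relatives, so the split of reads between these rows is uncertain.

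CTSB, an abundant lysosomal cathepsin that CST3 and CSTB inhibit, had 107, 116, 656, 238 and 149 CPM in epididymis replicates 1 to 5 and 104, 155, 134, 104 and 85.9 CPM in testis replicates 1 to 5. The groups overlapped and the difference was not called (log2 1.06 ± 0.46, edgeR adjusted p = 0.0527), although it was called without epididymis replicate 1, 2 or 5 (edgeR adjusted p = 0.0268 to 0.0407) and with no composition factors (edgeR adjusted p = 0.0481). Without epididymis replicate 3 the log2 difference was 0.37 (edgeR adjusted p = 0.205), and without replicates 3 and 4 it was 0.13 (edgeR adjusted p = 0.616). CTSC, the target of CST7 in leukocytes, had 69.8 to 133 CPM in the epididymis and 34.3 to 113 CPM in the testis, without a call (log2 0.57 ± 0.36, edgeR adjusted p = 0.165). CTSF had 230.4 ± 48.7 CPM in the epididymis and 265 ± 33.9 CPM in the testis (SD, n = 5 each), also without a call (log2 -0.21 ± 0.20, edgeR adjusted p = 0.360). The other called genes, named after their values were seen, were CTSS, CTSZ and CTSW, with log2 fold changes of 3.42, 2.89 and 1.53. Against testis replicate 4 alone the calls of CTSS (log2 2.17, edgeR adjusted p = 0.0742) and CTSW (log2 1.87, edgeR adjusted p = 0.128) were lost.

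**Figure D5:**
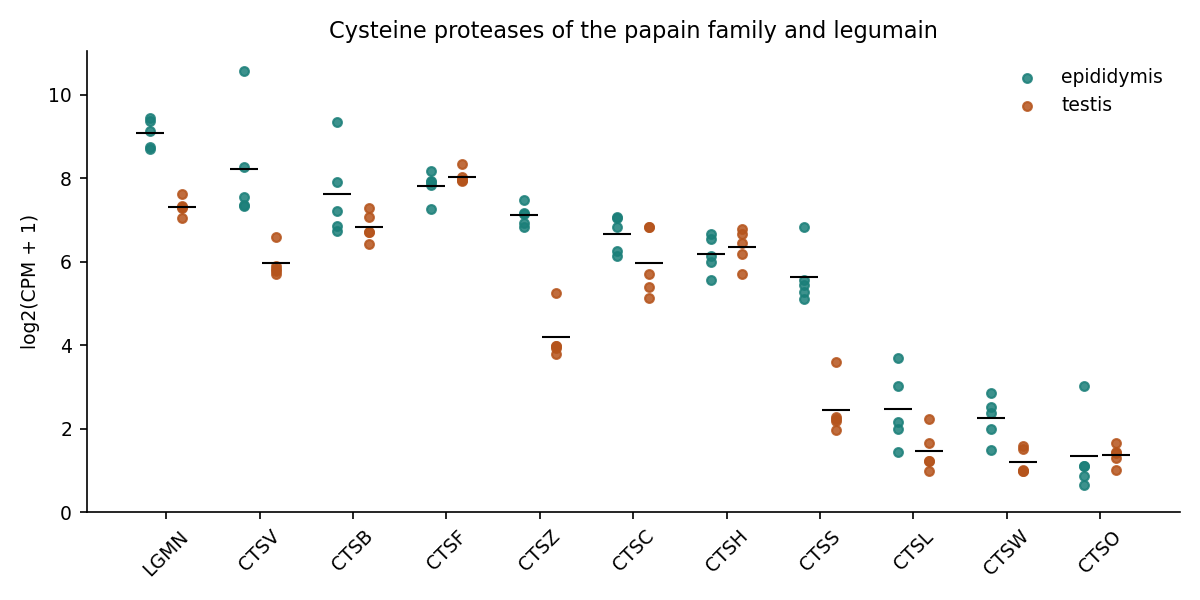
Levels of 11 cysteine protease genes as log2(CPM + 1), ordered by mean level in the epididymis, with epididymis libraries left of testis libraries for each gene. Points are libraries and horizontal lines are means on the plotted scale. LGMN, CTSV, CTSZ and CTSS show no overlap between tissues, while the other genes, such as CTSF and CTSH, overlap.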

How the data were processed

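Each library has 1 deposited table of raw counts, with a gene length. Per the submitters' processing notes, the authors used cutadapt 3.0, STAR and featureCounts of Subread with the build Sscrofa11.1. Annotation release, strand setting and treatment of multi-mapping reads: not given in the sources used here. Paralogs and overlapping or antisense genes are therefore uncertain. Another 2 long-read pooled samples were not analysed here. Counts come from amplified cDNA, so floors cover counting error only.

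CPM was computed over the total of each library. The tissue comparison used edgeR 4.0.16 under R 4.3.3 (filterByExpr, TMM factors, robust quasi-likelihood test, tissue as the only term, Benjamini-Hochberg adjustment over 17225 genes), and a change beyond 2-fold with glmTreat. Fold changes are edgeR's, with its prior count, and their SEs approximate, from the unshrunken change and the F statistic. The fit was tested on simulated data. P-values measure the spread between the 5 libraries of a tissue. No 2 libraries were duplicates, since chi-square over its degrees of freedom reached at least 78.9 between epididymis libraries and 10.3 between testis libraries.

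Same-numbered libraries come from the same boar by the animal numbers in the headers, and their deviations from the tissue means correlated across genes at 0.00610 to 0.0979. The alternatives were DESeq2 1.42.0 and its size factors, no composition factors, no filter, the boar as a block, leaving out libraries, and testis replicate 4 as the only testis library. Positions are whole genes in the RefSeq table of Sscrofa11.1, matched by symbol for 6 of the 6 cystatins. Named are all 6 cystatins, the 3 most abundant genes of each list, called genes against their list's direction, the proteases CTSB, CTSC, CTSL and LGMN, and the 3 genes most like a cystatin that averaged at least 10 CPM in the epididymis with a highest library at least 4 times the lowest, which only CST11 met. The members and lists were chosen with earlier results of these data known.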

Additional observations from a re-analysis of the deposited data

Results flagged for a closer look

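In 11 of 42 groups of 5 libraries, 1 per named gene and tissue, the highest or lowest library stood apart from the rest by a gap that took up more than 0.71 of the group's range. Chance gives about 1 such group in 20, but the count cannot be set against that rate, since DEFB127 was chosen for its pattern over these libraries, RNASE10 and GPX5 were named for means that rest on epididymis replicate 3, and the groups share libraries. No level of the 6 cystatins was among them; CST11 was high in 2 epididymis libraries, not 1. Epididymis replicate 3 stood apart and high for CTSB with 656 CPM, CTSV with 1512 CPM, RARRES1 with 59.7 CPM, RNASE10 with 5909 CPM, ADAM28 with 1537 CPM, GPX5 with 2577 CPM and DEFB127 with 3731 CPM. Testis replicate 4 stood apart and high for CTSF with 324 CPM, CTSV with 95.4 CPM and LXN with 26.8 CPM, and low for CST9L with 480 CPM.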

How the results depend on the processing

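CST6, CST7 and CSTL1 kept their direction and call under every alternative run, including testis replicate 4 as the only testis library. With that library alone the calls of CST3 (log2 1.26), CSTB (log2 1.52) and CST11 (log2 14.83, edgeR adjusted p = 0.201) were lost, and 2145 genes were called higher in the epididymis, against 6506 with all libraries. The calls of CTSL, CTSS, CTSV, CTSW, RNASE10, GPX5, ELSPBP1, DEFB127 and SPAG11 were lost there too, although the log2 differences of RNASE10 (12.64 against 11.81) and GPX5 (12.95 against 10.28) were no smaller. The lone testis library is then assumed to vary like the epididymis libraries. Leaving out single libraries gave log2 differences of 0.70 to 0.94 for CST3, at least 10.65 for CST6, -2.94 to -2.47 for CST7, 1.69 to 1.95 for CSTB and -5.77 to -5.24 for CSTL1. The fit with the boar as a block gave 0.82, 10.69, -2.61, 1.76 and -5.49 for these genes in the same order, and this pairing changed no call of a cystatin, nor of the named proteases, superfamily and proximal genes. Of the genes most like CST11, ELSPBP1 (edgeR adjusted p = 0.0162) and SPAG11 (edgeR adjusted p = 0.0372) were called higher in the epididymis without the block and not with it (edgeR adjusted p = 0.674 and 0.719). Among other named genes CTSC changed direction with testis replicate 4 alone (log2 -0.21) and CTSF without epididymis replicates 3 and 4 (log2 0.01), neither of them called; the cause was not tested. Other denominators and single omitted epididymis libraries moved the mean epididymis level of each cystatin by less than its SD, although that of CST11, 196.9 CPM, was 96.4 CPM without replicate 3. CST11 was fitted only where it passed the filter or none was set; where 1 library other than epididymis replicate 3 was left out it gave 10.60 to 11.59, and without that replicate, unfiltered, 9.91. DESeq2 adjusted p-values that were NA were left out. Depth limits CST7 and CSTL1 in the epididymis, CST6 and CST11 in the testis, each with few reads per library.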
